A study of Mus musculus with 1989 samples.

Results

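The set examined here was 7 tubulin isotype genes and the stathmin gene *Stmn1*, 8 of the 8846 genes in a log2 expression table of mouse thymocytes. The members were picked from that same table, *Tubb2b* because its level led in double-positive (DP) cells that were not cycling and the others because they led in cycling cells, so every RNA value below is a description and carries no test. Between cycling DP blasts and non-cycling rearranging DP cells that description held for all members in mean log2 value. It did not hold for all in the share of cells once each cell was thinned to the same depth. Against DP cells under selection, also outside the cycle, it failed for *Tubb2b* (mean log2 0.229, against 0.717 in DP blasts). After thinning, *Tuba1b*, *Tuba1c*, *Tubb4b*, *Tubb5* and *Stmn1* were higher in DP blasts than in rearranging DP cells. *Tuba1a* and *Tubb2a* had mean log2 values of 0.48 and 0.81 in DP blasts against 0.34 and 0.62 in rearranging DP cells. Their thinned shares differed by an amount whose interval included 0. Chromatin accessibility at the members' start sites was measured in other cells and took no part in the choice.

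Thymi came from male C57BL/6 mice of 7 weeks with no genetic change or treatment in the labels. A single droplet 3′ RNA library gave 1993 cells, and no label names an animal for any cell, so the library was 1 sample and no test between groups of its cells was possible. Single-cell ATAC profiles were used from 182 CD4-CD8- double-negative (DN), 125 DP, 119 CD4 and 116 CD8 sorted cells and from 1084 thymocytes of numbered plates, and each sort likewise counted as 1 sample. In the RNA library, 17 clusters were rebuilt and named after fixed markers as 78 DN-like, 163 immature single-positive (ISP-like), 490 DP blast (DPbla-like), 496 DP rearranging (DPre-like), 334 DP under selection (DPsel-like), 147 CD8sp-like and 218 CD4sp-like cells, with 31 nonconventional lymphocyte-like (NCL-like) and 36 antigen-presenting (APC-like) cells. *Mki67* was above 0 in 84.9% of DPbla-like and 15.9% of DPre-like cells.

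Microtubules are built from dimers of an alpha- and a beta-tubulin, each encoded by several near-identical isotype genes. Dividing cells rebuild their microtubules into the mitotic spindle. Stathmin binds free tubulin dimers and promotes the shrinkage of microtubules, and it is abundant in proliferating lymphoid cells. *Tuba1a*, *Tubb2a* and *Tubb2b* are best known from neurons, while *Tuba1b* and *Tubb5* are broadly expressed. In the thymus, cells proliferate at the ISP and DP blast stages and then leave the cycle to rearrange the T cell receptor alpha locus.

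The genes lie on 5 chromosomes (GRCm38, GENCODE vM21). *Tubb2a* (chr13:34074274-34078007, minus strand) and *Tubb2b* (chr13:34126748-34130466, minus strand) are neighbours whose starts are 52.5 kb apart. *Tuba1b* (chr15:98931425-98934565, minus), *Tuba1a* (chr15:98949837-98953703, minus) and *Tuba1c* (chr15:99029891-99038110, plus) form an alpha-tubulin cluster. *Tubb4b* is at chr2:25222160-25224702 (minus), *Tubb5* at chr17:35833921-35838306 (minus) and *Stmn1* at chr4:134468320-134473843 (plus). Reads shared by near-identical copies could be assigned to one copy, split or dropped. How the deposited values treat them is not given in the sources used here, so differences between isotypes carry that uncertainty.

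RefSeq promoter windows (GRCm38.p6) were matched for 6 of the 8 members, and none was matched for *Tubb2b* and *Stmn1*. The 250 bases before the start are printed for the 4 genes whose RefSeq start lay within 5 bases of the GENCODE start. They set *Tubb2a*, whose thinned share did not separate DPbla-like from DPre-like cells, beside genes whose share did. Capitals mark 5 kinds of motif, each searched on both strands. The CCAAT box was searched by its letters. The cell cycle homology region (CHR) was read as TTTGAA or, as a second form of the same motif, as TTCGAA. The TATA box was read as TATAAA. The GC box that Sp1 family factors bind was read as GGGCGG. The E2F motif was read as TTTCGCGC, as TTTGGCGC and as TTTCCCGC.
Tubb2a, chr13:34078009-34078258, minus strand: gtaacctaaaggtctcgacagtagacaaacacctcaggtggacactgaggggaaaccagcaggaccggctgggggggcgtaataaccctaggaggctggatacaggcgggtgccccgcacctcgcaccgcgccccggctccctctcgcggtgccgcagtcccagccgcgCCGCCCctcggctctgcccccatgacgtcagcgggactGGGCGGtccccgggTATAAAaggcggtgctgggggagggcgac
Tubb4b, chr2:25224703-25224952, minus strand: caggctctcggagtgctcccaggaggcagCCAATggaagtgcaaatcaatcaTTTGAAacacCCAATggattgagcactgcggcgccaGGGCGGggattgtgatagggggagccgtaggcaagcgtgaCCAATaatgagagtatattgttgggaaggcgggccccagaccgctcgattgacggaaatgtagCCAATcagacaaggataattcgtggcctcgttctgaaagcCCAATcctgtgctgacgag
Tuba1c, chr15:99029641-99029890, plus strand: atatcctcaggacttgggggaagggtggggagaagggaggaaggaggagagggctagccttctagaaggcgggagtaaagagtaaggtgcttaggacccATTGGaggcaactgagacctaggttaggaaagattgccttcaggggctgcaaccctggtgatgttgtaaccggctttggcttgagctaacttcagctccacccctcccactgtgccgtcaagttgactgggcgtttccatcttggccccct
Tubb5, chr17:35838302-35838551, minus strand: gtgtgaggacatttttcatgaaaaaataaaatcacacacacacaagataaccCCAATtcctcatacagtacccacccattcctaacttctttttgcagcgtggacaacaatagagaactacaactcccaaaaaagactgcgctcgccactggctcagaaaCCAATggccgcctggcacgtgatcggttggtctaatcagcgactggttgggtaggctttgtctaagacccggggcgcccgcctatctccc

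The *Tubb4b* window held 5 CCAAT boxes, a CHR and a GC box. Of all 32851 promoter windows, 33.8% held a CCAAT box and 0.213% held 5 or more, and 17.1% held a CHR. *Tubb5* held 2 CCAAT boxes and *Tuba1c* held 1, on the other strand. *Tubb2a* had no CCAAT box but a TATA box 29 to 24 bases before its start, found in 12.4% of windows, and 2 GC boxes, and 32.7% of windows held at least 1. The presence of a CCAAT box did not sort the members by their RNA, since the RefSeq window of *Tuba1b* had none and 2 GC boxes and that of *Tuba1a* had 1 and a GC box (both windows start inside the GENCODE gene and are not printed). No E2F letters were present in the 4 windows, and 1.53% of all windows held them. Motif matches describe the letters of these windows and no binding was measured.

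Each deposited value was turned into steps by sorting the different values found in a cell and taking the position of each, which stands in for a molecule count and is a lower bound for abundant genes. Cells were thinned to 1300 steps, since a median of 1998.5 steps in DPre-like cells stood against 5059.5 in DPbla-like and 10082 in ISP-like cells and the mean log2 value moves with this depth. Shares of cells are those with at least 1 step after thinning, and intervals are exact 95% binomial ones that cover counting error only. No thymic cell type is known to lack tubulin, so the NCL-like and APC-like cells are given as the comparison. *Hbb-bs*, a red cell transcript that marks free RNA, was above 0 in 2.69% (DPsel-like) to 16.0% (ISP-like) of cells before thinning.

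*Tubb2b* was highest in the DPre-like class, and not in DP-like cells outside the cycle at large, since the DPsel-like class had less of it than the cycling DPbla-like class. It was present in 63.7% of DPre-like cells (95% interval 59.3 to 67.9%, n = 496 cells), against 30.4% of DPbla-like (26.4 to 34.7%, n = 490), 23.9% of ISP-like and 17.9% of DN-like cells. CD8sp-like cells had it in 17.0%, DPsel-like cells in 13.2% and CD4sp-like cells in 10.6%, with intervals that overlapped those of NCL-like (9.68%) and APC-like (16.7%) cells. Only the gap between DPre-like and DPbla-like cells separated neighbours in this order beyond their intervals. On the log2 scale the mean was 1.65 ± 1.31 (SD over cells) in DPre-like cells, with a median of 1.63 and a highest value of 5.42, and 0.72 ± 0.82 in DPbla-like cells. Without thinning, the shares were 77.0% in DPre-like and 66.9% in the deeper DPbla-like cells, so that the gap of 33.3 percentage points (27.3 to 39.0) became 10.1 points (4.48 to 15.6).

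**Figure D1:**
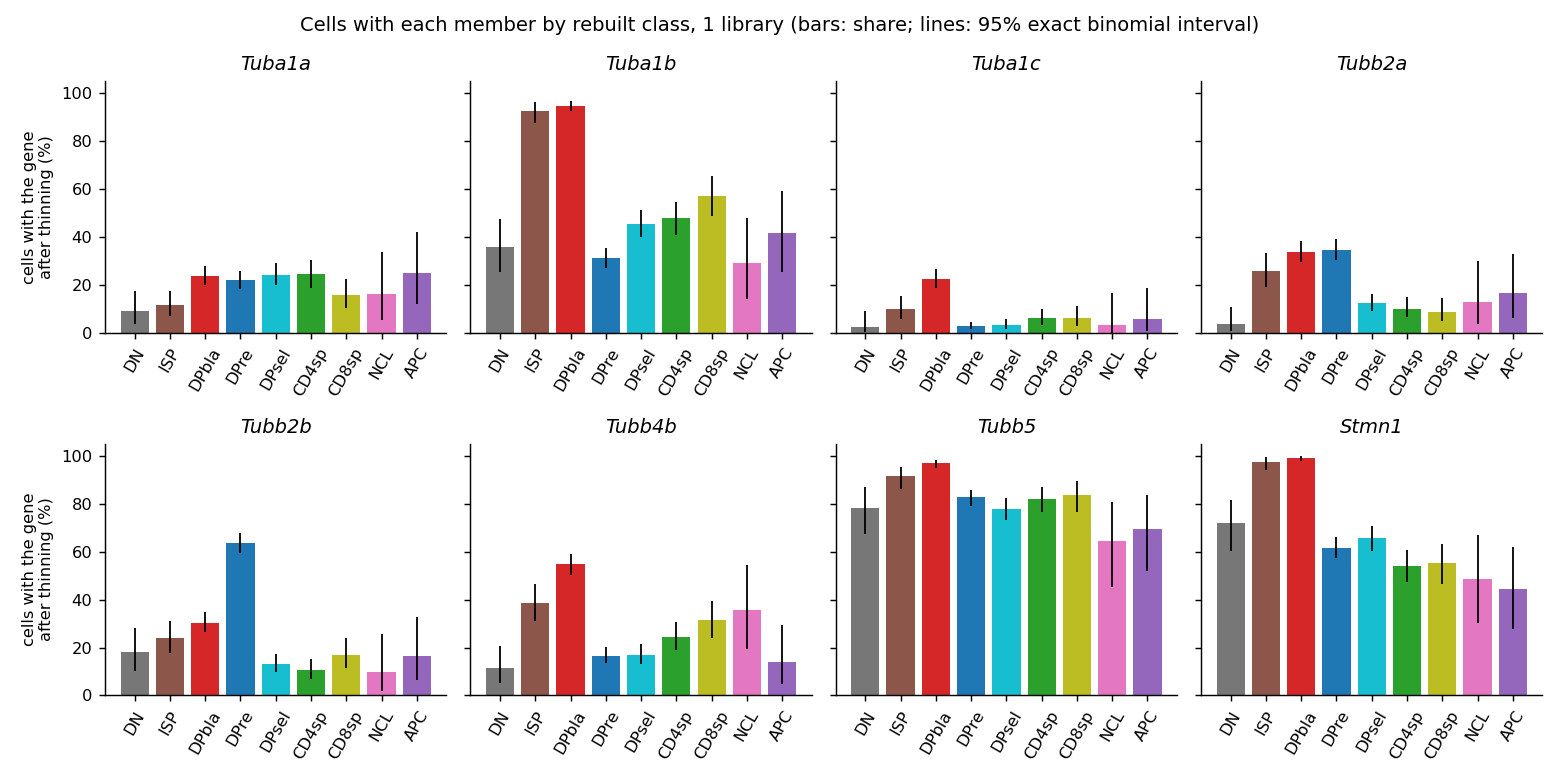
Bars show the share of cells with each member after thinning (y axis, percent) by rebuilt class (x axis) in the single RNA library, with 95% exact binomial intervals as lines. *Tubb2b* stands highest in DPre-like cells at 63.7%, whereas *Tuba1b*, *Tubb4b* and *Stmn1* stand highest in DPbla-like cells at 94.7%, 54.7% and 99.2%.

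Within DP cells the *Tubb2b* signal was not uniform. Among the DPre-like clusters the share was 74.5% in cluster 0, 60.0% in cluster 1 and 51.2% in cluster 8. Cluster 8 (121 cells, *Mki67* above 0 in 43.0%) had no DPre marker and 1 marker of another class among its 10 leading genes. The latter outnumbered its own in no other cluster, although 7 other clusters (5, 6, 7, 9, 12, 13 and 14) likewise held none of their own. Without it the DPre-like share was 67.7%. The clusters of DPbla-like cells are given in the order of their cycle scores. Cluster 5 had 88.1% of its cells scored as S phase, cluster 2 had 51.2% scored S and 47.7% scored G2/M, and clusters 10 and 12 were scored G2/M throughout. *Tubb2b* was in 26.5%, 25.0%, 23.2% and 61.1% of their cells. Cluster 12 therefore stood with the DPre-like clusters and apart from cluster 10 (interval 48.9 to 72.4% against 15.1 to 32.9%), although both were G2/M-scored. Cluster 12 had a mean S phase z score of -0.37 against 0.45 in cluster 10. In the DPsel-like clusters the share was 20.2% (cluster 4) and 6.43% (cluster 3). Some names were close calls by mean marker z score. Cluster 5 had 0.389 for DPbla against 0.321 for ISP, and cluster 3 had 0.799 for DPsel against 0.673 for CD4sp.

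Among all DPbla-like and DPre-like cells, 31.1% of 485 cells scored S or G2/M had *Tubb2b*, against 62.7% of 501 cells with neither score, a difference of -31.5 percentage points (Newcombe 95% interval -37.3 to -25.5). Nearly all cells with neither score were DPre-like (481 of 501). The 14 G2/M-scored DPre-like cells had *Tubb2b* in 57.1% (28.9 to 82.3%) and the 20 DPbla-like cells with neither score in 30.0% (11.9 to 54.3%), too few to separate class from phase.

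**Figure D2:**
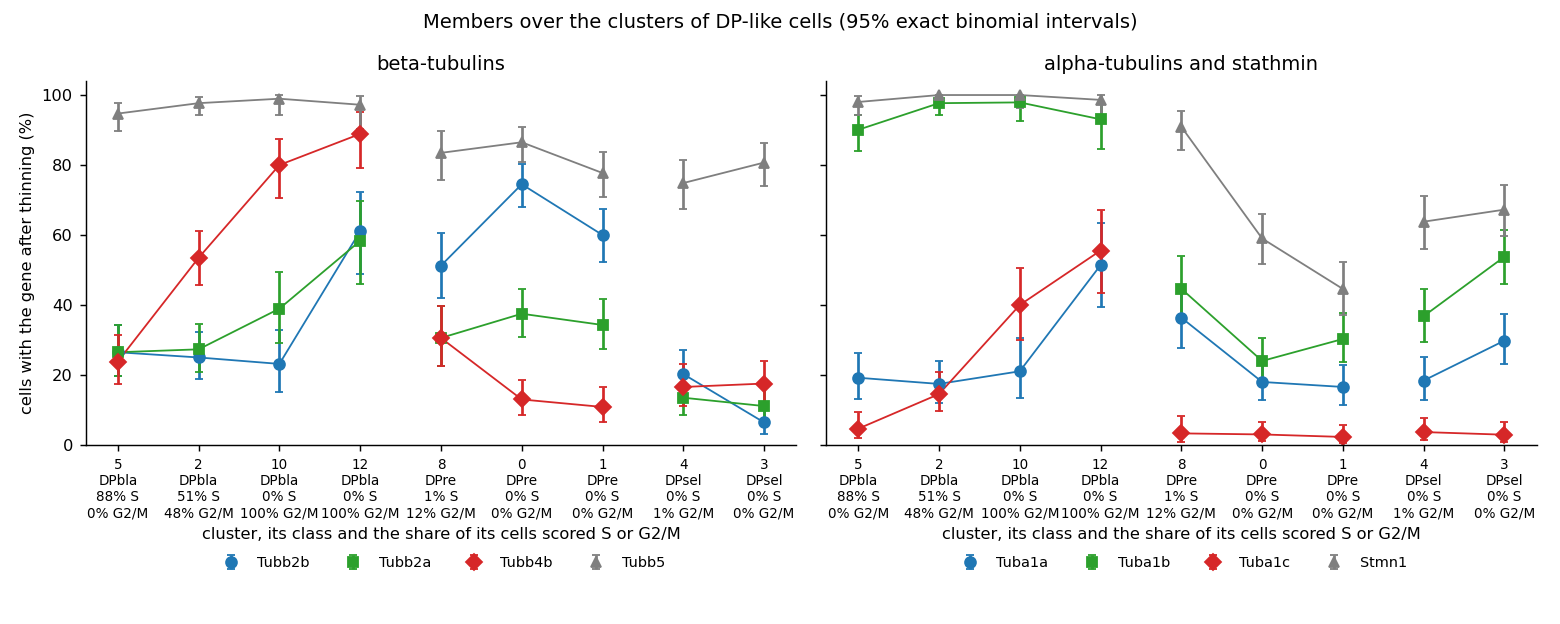
Share of cells with each member after thinning (y axis, percent) over the clusters of DP-like cells (x axis, with class and share of cells scored S or G2/M), points with 95% exact binomial intervals and lines joining clusters of 1 class. *Tubb4b* goes from 23.8% in the S-scored cluster 5 to 88.9% in cluster 12 and is at most 30.6% in DPre-like clusters, while *Tubb2b* is at 61.1% in cluster 12 and 74.5% in cluster 0.

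*Tubb2a*, the neighbour of *Tubb2b*, had shares like it in cycling cells (33.9% against 30.4% of DPbla-like and 25.8% against 23.9% of ISP-like cells) and a lower one in DPre-like cells (34.7% against 63.7%). Its share was 34.7% in DPre-like and 33.9% in DPbla-like cells, a difference of -0.800 percentage points (-6.70 to 5.11). Without thinning the same comparison gave 20.8 points more in DPbla-like cells, so its direction rests on the correction for depth. Cells after the DPre stage had less of it, at 12.3% for the DPsel-like class, 10.1% for CD4sp-like and 8.84% for CD8sp-like cells, and DN-like cells had 3.85%. Over the DPbla-like clusters it went from 26.5% in cluster 5 and 27.3% in cluster 2 to 38.9% in cluster 10 and 58.3% in cluster 12. Both genes were detected together in 25.2% of DPre-like and 13.7% of DPbla-like cells.

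*Tubb4b* was more often present in G2/M-scored DP cells (77.9%) than in S-scored ones (31.1%). It was in 54.7% of DPbla-like, 38.7% of ISP-like and 16.5% of DPre-like cells, and 12.0% of DPre-like cells without cluster 8. Across the DPbla-like clusters it was in 23.8% (cluster 5), 53.5% (cluster 2), 80.0% (cluster 10) and 88.9% (cluster 12) of cells. The 35.5% in NCL-like cells had an interval of 19.2 to 54.6% (n = 31 cells).

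*Tubb5* was the most widespread tubulin, present in 96.9% of DPbla-like, 91.4% of ISP-like and 82.7% of DPre-like cells. Its lowest share was 64.5% in NCL-like cells, and the intervals of all neighbouring classes in its order overlapped. With nearly every cell positive, the number of steps shows the difference better, at 4.26 per thinned DPbla-like cell, 2.94 per ISP-like cell and 1.99 per DPre-like cell.

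Beta-tubulin steps were summed over the members *Tubb2a*, *Tubb2b*, *Tubb4b* and *Tubb5* only. *Tubb2b* made up more of this sum in the DPre-like class than in the others. It gave 36.5% of the 2055 beta-tubulin steps there (34.4 to 38.6%) and *Tubb5* 48.0%, and without cluster 8 the *Tubb2b* part was 39.7%. In the other 8 classes *Tubb2b* gave 4.69 to 9.09% and *Tubb5* 68.3 to 82.3%. Single clusters went past these ranges, with *Tubb2b* at 12.2% and *Tubb5* at 49.4% in the DPbla-like cluster 12 and *Tubb2b* at 11.6% in the DPsel-like cluster 4, against 25.3 to 42.7% for *Tubb2b* in the DPre-like clusters. DPbla-like cells had 6.23 beta-tubulin steps per thinned cell and DPre-like cells 4.14, and *Tubb2b* accounted for 0.429 and 1.51 of them. In 28.4% of DPre-like cells *Tubb2b* had more steps than *Tubb5*, against 1.63% of DPbla-like cells. Steps understate the more abundant gene of a cell, which was not the same gene in every cell.

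**Figure D3:**
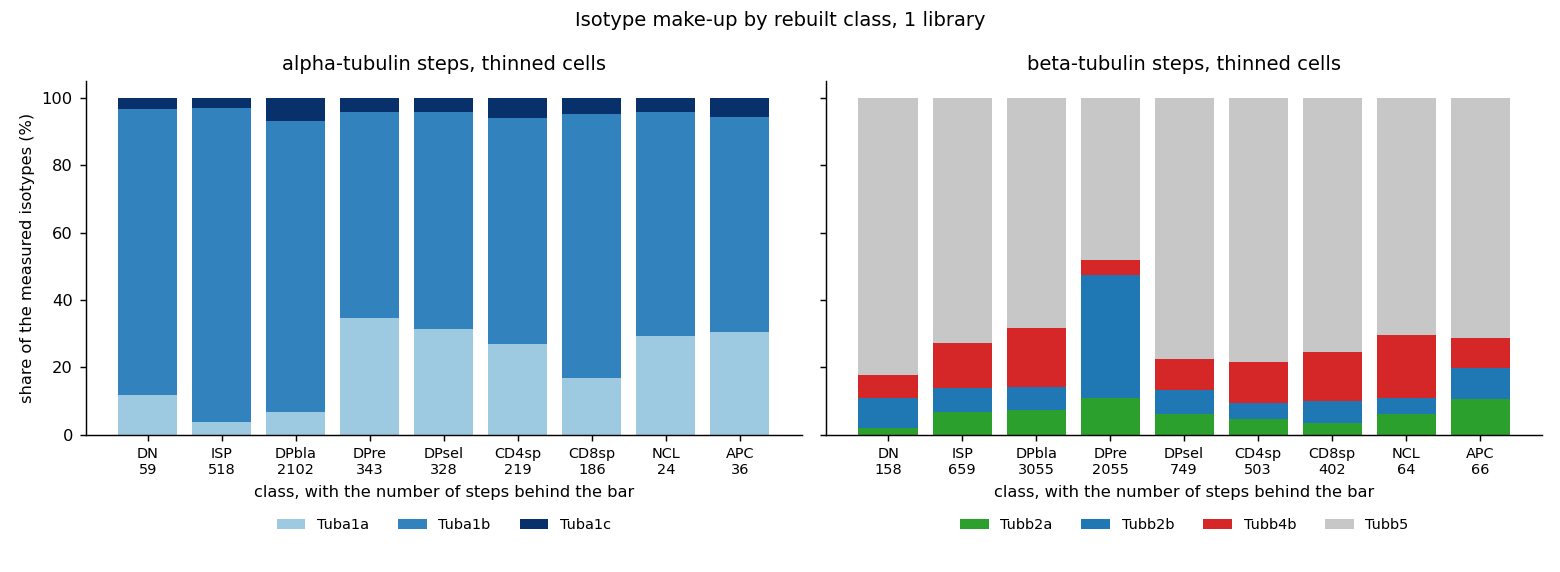
Share of thinned alpha-tubulin steps (left) and beta-tubulin steps (right) from each member isotype (y axis, percent) by rebuilt class (x axis, with steps behind each bar). Only steps of the members are summed. *Tuba4a* and *Tubb3* were measured but left out. *Tuba4a* had 0.313 steps per thinned CD8sp-like cell, against 0.211 for *Tuba1a*. *Tubb2b* makes up 36.5% of these beta-tubulin steps in DPre-like cells and at most 9.09% in any other class.

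Of the alpha-tubulins, *Tuba1b* was nearly universal in cycling cells. It was in 94.7% of DPbla-like and 92.6% of ISP-like cells, and its share lay between 29.0% (NCL-like) and 57.1% (CD8sp-like) elsewhere, with 31.3% in DPre-like cells. Steps per thinned cell were 3.71 for the DPbla-like and 0.423 for the DPre-like class. *Tuba1c* was rare outside G2/M-scored cells. It was in 22.4% of DPbla-like, 9.82% of ISP-like and 2.82% of DPre-like cells, and in 4.64%, 14.5%, 40.0% and 55.6% of the cells of clusters 5, 2, 10 and 12.

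*Tuba1a* had similar shares in the DP classes as a whole, but not in every cluster. Its share was 23.7% in DPbla-like, 22.0% in DPre-like and 24.3% in DPsel-like cells, a difference of 1.70 percentage points (-3.54 to 6.93) between the first pair. That difference was 6.34 points (0.873 to 11.6) without cluster 8, 2.67 (0.549 to 4.99) for cells with at least 2 steps and 23.5 without thinning. Higher shares were found in cluster 12 (51.4%, 39.3 to 63.4%) and cluster 8 (36.4%), against 16.6 to 21.1% in the other DPbla-like and DPre-like clusters. Its part of the summed *Tuba1a*, *Tuba1b* and *Tuba1c* steps was 34.7% in DPre-like and 6.76% in DPbla-like cells, where *Tuba1b* gave 61.2% and 86.4%. *Tuba4a*, left out of that sum, had 0.0504 steps per thinned DPre-like cell and 0.0592 per DPbla-like cell.

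*Stmn1* was present in 99.2% of DPbla-like and 97.5% of ISP-like cells. DN-like cells had it in 71.8%, DPsel-like in 65.6%, DPre-like in 61.7%, CD8sp-like in 55.1% and CD4sp-like in 54.1%. Cluster 8 had a high share (90.9%, with 3.40 steps per thinned cell), while clusters 0 and 1 had 59.0% and 44.6%. Without cluster 8 the DPre-like share was 52.3%. In DPre-like cells 27.2% had *Tubb2b* without *Stmn1*, and 0 of 490 in the DPbla-like class did (a limit of 3 cells, or 0.612%).

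By a size rule of at least 0.5 in mean log2 value, 4 of the 8 members were higher in DPbla-like than in DPre-like cells (*Tuba1b* by 2.79, *Stmn1* by 2.58, *Tubb5* by 1.41 and *Tubb4b* by 1.26), where 2.91% of all 8846 genes were, and *Tubb2b* was lower (-0.93), where 0.294% were. These counts follow from how the members were picked. In ISP-like against DN-like cells 5 members were higher (4.74% of all genes), with *Tuba1b* at 2.22, *Stmn1* at 1.55, *Tubb5* at 0.96, *Tubb4b* at 0.90 and *Tubb2a* at 0.51. By this rule *Tubb2b* was the sole member lower in DPsel-like than in DPre-like cells (-1.42), where 0.690% of genes were lower. *Tubb2a*, at -0.45, just missed the rule, with a difference in thinned share of -22.4 percentage points (-27.7 to -16.7). No member differed by 0.5 between CD4sp-like plus CD8sp-like and DPsel-like cells, where 0.463% of genes were higher and 0.158% lower.

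The members were picked for their difference and the other genes of the microtubule system were not, so their sizes are not set against each other. None of 11 other measured tubulin, gamma-tubulin ring and related genes and none of 24 tubulin folding genes passed the size rule between DPbla-like and DPre-like cells. Their median differences were 0.0065 and 0.077, and the median of all genes was -0.0024. *Tubg1*, the gamma-tubulin that nucleates microtubules, was in 14.7% of DPbla-like and 5.24% of DPre-like cells. *Cct4*, a subunit of the chaperonin that folds tubulin and actin, was in 28.4% and 40.1%, and *Pfdn6*, a prefoldin subunit, in 33.5% and 17.9%. Of 28 genes of microtubule dynamics, *Dynll1*, a dynein light chain (0.58), and *Tpx2*, a spindle assembly factor (0.54), passed. None of 9 genes of tubulin modification did. For comparison, 23 of 51 G2/M genes and 12 of 42 S phase genes passed, all higher in DPbla-like cells. *Mki67*, *Top2a*, *Birc5* and *Rrm2* of these lists were also markers that named the DPbla-like class, so this direction was partly set by the naming. In ISP-like against DN-like cells, 7 of the 24 folding genes were higher and none lower, in cells with a median of 10082 against 3633 steps.

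Genes with the most similar profile over the 17 cluster means were ranked among 7504 non-members above 0 in at least 5% of cells. For *Tubb2b* these were *P2rx1*, an ATP-gated channel (Pearson r = 0.94), *BC028471* (0.94), *Prep*, a peptidase (0.93), *Slc7a11*, a cystine transporter (0.93), and *Nim1k* (0.93). *Stmn1* was closest to *Hmgn2* (0.99), *Rbm3* (0.98), *H2afz* (0.98), *Lsm5* (0.98) and *Hmgn5* (0.98). The nearest to *Tubb5* were *Smc2* (0.96), *Top2a* (0.96), *Pbrm1* (0.95), *Lmnb1* (0.95) and *Ezh2* (0.95), and to *Tuba1a* they were *Faap24* (0.86), *Chkb* (0.84), *Cep70* (0.83), *Emp1* (0.82) and *Ptms* (0.82). Between members, *Tubb2b* had r of 0.67 with *Tubb2a* and between -0.02 and 0.31 with the other 6. These r describe clusters of 1 library that also share depth, and carry no test.

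The ATAC cells gave a view of the start sites that the choice of members had not used. Peaks were windows of 4000 bases, and for each gene the peak with the most counts over its start was taken. Totals in peaks were 1108749 for DN, 478264 for DP, 558091 for CD4 and 494645 for CD8 sorted cells, and signal is given per 10000 counts in peaks with 95% Poisson intervals for counting error. The sorts matched their labels in part. *Cd8a* start signal was 0.404 in CD8 and 0.0358 in CD4 sorted cells and *Rag1* signal was 0.836 in DP sorted cells with 0 counts in CD4 sorted cells (interval up to 0.0661) and 0.384 in CD8 sorted cells, but *Il2ra*, a DN marker, had 0.144 in DN against 0.179 in CD4 and 0.202 in CD8 sorted cells, and the *Cd4* start had 1 count in CD4 and 9 counts in DP sorted cells. How many cells of each DP stage the DP sort held is not known.

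*Tubb2b* start signal was highest in the DP sort. It was 1.17 per 10000 counts in DP cells (0.884 to 1.52, 56 counts), 0.647 in CD8 (32 counts), 0.376 in CD4 (21 counts) and 0.189 in DN cells (0.117 to 0.290, 21 counts). The DN signal was 0.162 of the DP signal (exact conditional 95% interval 0.0930 to 0.271), and only 12 of 8331 genes with 20 or more counts had a ratio this low or lower. A count was seen in 31.2% of DP and 9.34% of DN cells. The label numbers of the sorted cells fall into series, whose meaning the labels do not state. The 3 DP series had 0.947, 0.558 and 1.41, and the 5 DN series had 0.0589, 0.409, 0, 0.155 and 0.277, so that every DP series lay above every DN series, which was so for 2.77% of genes. The lowest DP series rested on 3 counts, with an interval of 0.115 to 1.63 that holds the highest DN series. Within the series of label numbers from 4000 the ratio was 0.197 (0.0681 to 0.468), and within that from 31000 there were 0 DN counts against 3 DP counts, with an interval of 0 to 1.76. Without the series from 4000 the ratio was 0.199 (0.0927 to 0.424).

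Compared with DP, CD4 and CD8 sorted cells together had 0.430 of the *Tubb2b* signal (0.290 to 0.637), and 0.173 (0.0193 to 0.727, 2 counts against 17) without the series from 4000. All 5 other peaks over the *Tubb2b* start also had more signal in DP than in DN cells. The peaks centred 1305 and 712 bases upstream had 28 and 44 counts in DP against 10 and 27 in DN cells, whose total was larger, and their intervals did not overlap. Those centred 531, 844 and 1372 bases downstream had signals of 0.272, 0.230 and 0.167 in DP against 0.126, 0.144 and 0.0271 in DN cells, with overlapping intervals on 8 to 13 DP counts. Summed over all peaks at the start, the DN to DP ratio was 0.245 (0.188 to 0.319). These windows overlap each other.

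**Figure D4:**
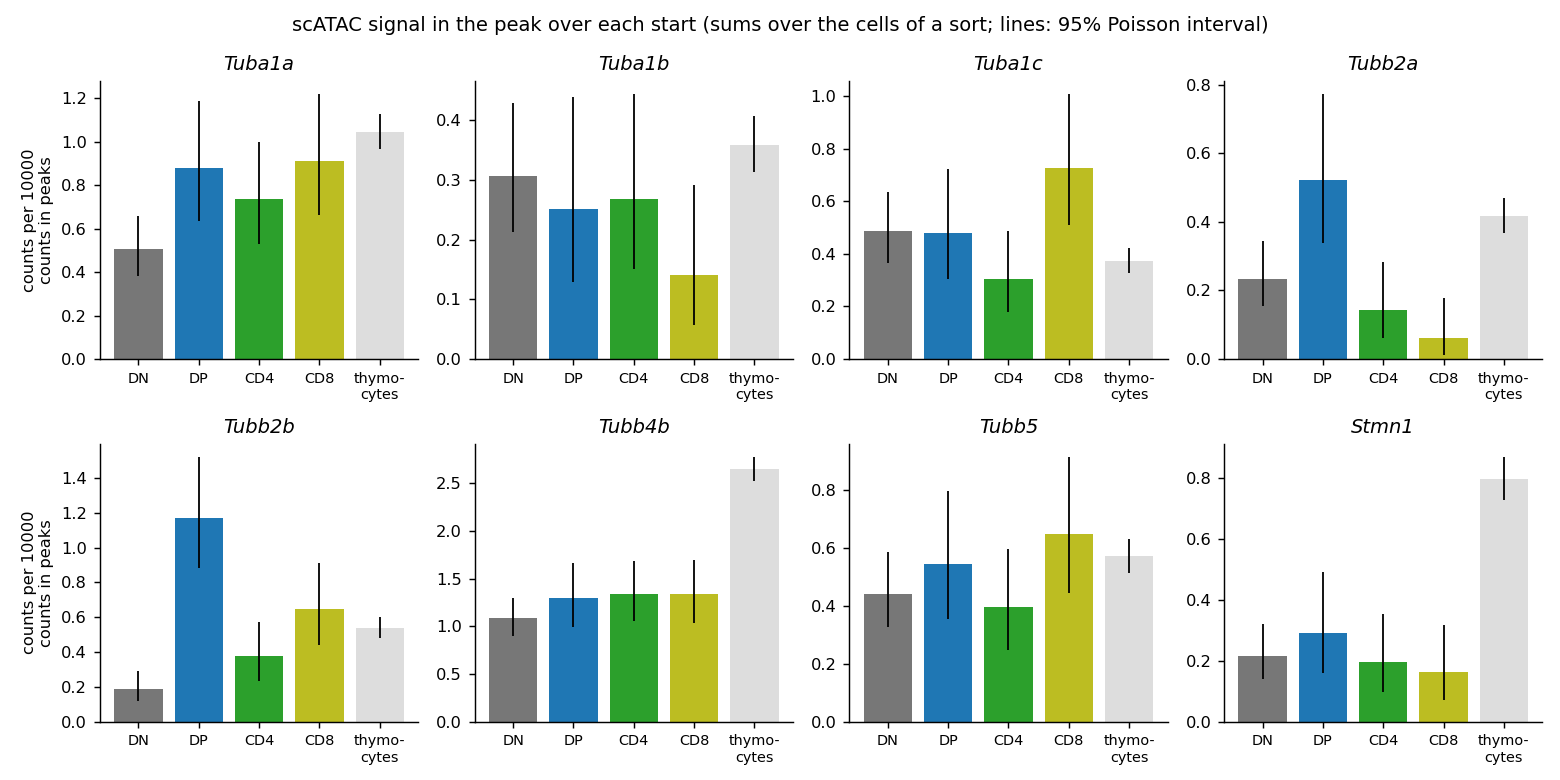
Bars show scATAC signal in the peak over each member's start (y axis, counts per 10000 counts in peaks, own scale per gene) by sort and in thymocytes of numbered plates (x axis), with 95% Poisson intervals as lines. *Tubb2b* and *Tubb2a* are highest in DP sorted cells (1.17 and 0.523), while *Tubb4b* is between 1.08 and 1.34 in all 4 sorts.

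*Tubb2a* also had its highest start signal in DP cells, at 0.523 (25 counts), against 0.234 in DN (26 counts), 0.143 in CD4 (8 counts) and 0.0606 in CD8 cells (3 counts). The single-positive sorts together had 0.1999 of the DP signal (0.0888 to 0.421), and 19 of 7912 genes had a ratio this low or lower. Summed over all peaks at the start the ratio was 0.377 (0.232 to 0.608). DN cells had 0.449 of it (0.249 to 0.810), a ratio that 3.24% of genes fell to or below. The DN and DP series overlapped, since the DP series from 3000 and 31000 had 0.271 and 0.186 and the DN series from 2000 had 0.454. The DP series from 4000 had 0.723 and held 20 of the 25 DP counts. Without the series from 4000 the DP signal was 0.248 (5 counts) and the DN signal 0.235, a ratio of 0.949 (0.348 to 3.22), so the gap between DN and DP rests on that series. The single-positive sorts then had 0 counts against these 5, with an interval of 0 to 1.60 for the ratio. A peak centred 12661 bases upstream of *Tubb2a*, toward *Tubb2b*, had 0.523 in DP (0.338 to 0.772) and 0.117 in DN (0.0624 to 0.2005), with 0.161 in CD4 and 0.243 in CD8 cells.

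**Figure D5:**
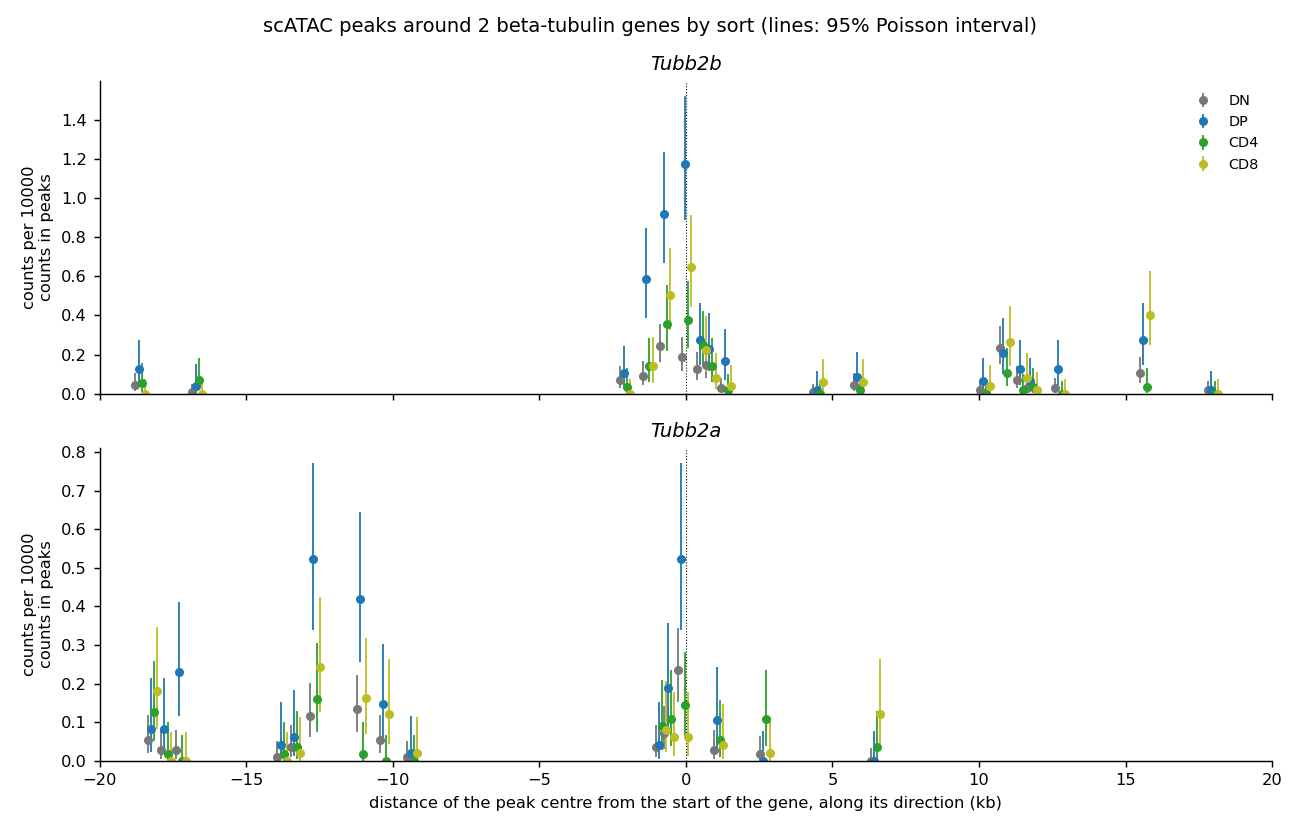
scATAC signal by sort (y axis, counts per 10000 counts in peaks, with 95% Poisson intervals) of the peaks around *Tubb2b* and *Tubb2a* by distance of the peak centre from the start, along the gene's direction (x axis, kb, points of the sorts set slightly apart). DP cells stand above DN cells at the *Tubb2b* start (1.17 against 0.189) and at the peak 12661 bases upstream of *Tubb2a* (0.523 against 0.117).

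For 5 of the other 6 members the interval of the DN to DP ratio at the start included 1. *Tubb4b* had 1.296 in DP, 1.08 in DN, 1.34 in CD4 and 1.33 in CD8 cells, and the DN to DP ratio was 0.835 (0.609 to 1.15). *Tuba1b* differed most between DPbla-like and DPre-like cells in mean log2 value and in thinned share. It had 0.251 in DP (12 counts) and 0.307 in DN cells (34 counts), a ratio of 1.22 (0.617 to 2.59). For *Tubb5* it was 0.813 (0.495 to 1.36), for *Tuba1c* 1.01 (0.611 to 1.73) and for *Stmn1* 0.739 (0.367 to 1.55). With these counts differences within the intervals were not detectable. With counts capped at 1 per cell the *Tubb4b* ratio was 0.661 (0.451 to 0.976), which leaves out 1.

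*Tuba1a* start signal was lower in DN cells, at 0.505 against 0.878 in DP, a ratio of 0.575 (0.379 to 0.880), and 9.28% of genes had a ratio this low or lower. The series overlapped, with 0.909 in the DN series from 2000 against 0.904 and 0.558 in the DP series from 4000 and 31000. Without the series from 4000 the ratio was 0.651 (0.368 to 1.21). CD4 and CD8 cells had 0.735 and 0.910. By a rule of a ratio at or below 1/1.5, 3 of the 8 members (*Tuba1a*, *Tubb2a*, *Tubb2b*) were lower in DN than in DP cells, where 17.0% of 8331 genes were, and none was higher, where 18.0% were. In single-positive against DP cells 3 members were lower (*Tubb2a*, *Tubb2b* and *Stmn1*, the last at 0.617 with an interval of 0.293 to 1.33, or 0.640 and 0.456 to 0.904 over all peaks at its start), where 17.5% of 7912 genes were, and none was higher, where 16.6% were.

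Thymocytes of numbered plates had more signal than any sort at the starts of *Tubb4b* (2.65) and *Stmn1* (0.797, against 0.162 to 0.293 in the sorts). They were also highest for *Tuba1a* (1.04, against at most 0.910, in CD8) and *Tuba1b* (0.358, against at most 0.307, in DN). For *Tuba1a* and *Tuba1b* their intervals overlapped those of the named sorts. Their median count per cell was 5792, against 2571 to 3935.5 in the sorts, and cell makeup and plate handling cannot be told apart for them. Their *Tubb2b* signal, 0.539 (0.483 to 0.599), lay between the DN and DP values and wholly below the DP interval (0.884 to 1.52). Their *Rag1* and *Cd8a* signals were 0.720 and 0.784, against 0.836 and 0.565 in the DP sort.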

How the data were processed

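The authors deposited a table of log2 expression values, quantile normalized per cell (79.7% zeros), and a table of raw counts per ATAC peak and cell. The submitters' processing notes name Cell Ranger 1.3.1 and the builds GRCm38.p5 and hg38. The ATAC table states no build and was read as GRCm38, since 22.5% of its 138317 peak centres lay within 2000 bases of a GENCODE vM21 start, against 6.20% after a shift of 100000 bases. Of 1988 ATAC columns, 362 could not be tied to a labelled group by name and were not used.

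RNA cells were clustered in Seurat 5.3.0 (R 4.3.3) with 1306 variable genes, 20 principal components, 30 neighbors and resolution 2. Of the 8 members, 5 were among the variable genes. Clusters took the class of highest mean marker z score, and ISP or DPbla was allowed where *Mki67* was above 0 in at least 50% of cells. Values were turned into steps (1356 to 22539 per cell, median 2558) and thinned to 1300 with a fixed seed. Phase was called from mean S and G2/M gene z scores above 1, without the members. No doublet caller was run. Scripts used Python 3.11.15 with scipy 1.17.1 and were tested on simulated data with known changes. Intervals are 95% and cover counting error only.

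The members and gene lists were chosen with earlier results of these data known. Named genes were the 8 members, the 5 genes of most similar cluster profile for *Tubb2b*, *Stmn1*, *Tuba1a* and *Tubb5*, and genes among the 3 highest and 3 lowest DPbla-like minus DPre-like differences of each list. The labels named no replicate animal in any group, so no p-value is given. Alternatives were other clustering settings, thinning and detection rules, phase rules, peak choice, depth minimum, label series and scaling, with 8 added after seeing the data.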

Additional observations from a re-analysis of the deposited data

How the results depend on the processing

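No paired analysis was possible because each group was a single library or sort. Of 205 alternative values, 166 stayed within the interval of the reported value and 39 lay outside it. None changed the direction of a difference whose interval left out 0 (for ratios, 1). Of the 39, 8 came from leaving out cluster 8, 2 from leaving out cluster 12 and 4 from leaving out the series from 4000. Differences between DPbla-like and DPre-like shares are in percentage points. Without thinning they were 23.5 for *Tuba1a*, 57.5 for *Tuba1b*, 45.0 for *Tuba1c*, 20.8 for *Tubb2a*, -10.1 for *Tubb2b*, 58.9 for *Tubb4b*, 5.84 for *Tubb5* and 25.6 for *Stmn1*, and the cause was not tested. Counting only cells with 2 or more steps gave 74.4 for *Tuba1b*, 6.33 for *Tuba1c*, 28.4 for *Tubb4b*, 31.5 for *Tubb5* and 64.3 for *Stmn1*. Resolution 1 gave 27.2 for *Tuba1c* and 51.8 for *Tubb4b*, and the cause was not tested. Without cluster 12 these were 13.9 and 32.3. Without cluster 8, chosen like cluster 12 after seeing the data, the differences were 67.8 for *Tuba1b* and 46.9 for *Stmn1*, and the DPre-like shares were 17.3% for *Tuba1a*, 26.9% for *Tuba1b*, 12.0% for *Tubb4b* and 52.3% for *Stmn1*, with 39.7% of beta-tubulin steps from *Tubb2b* and 2.94% from *Tubb4b*. Other clustering settings, the second thinning seed, leaving out the 5% of cells with the most genes, and clustering without tubulin and stathmin genes gave values within the reported intervals.

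For the ATAC ratios, the series of label numbers from 4000 gave DN to DP ratios of 0.358 for *Tuba1a* and 0.572 for *Tubb4b*. The series from 31000 held few counts. Its DN to DP ratio was 0 for *Tubb2b* (0 counts against 3) and 0 for *Tubb2a* (0 against 1), 1.56 for *Tubb4b* and 1.46 for *Tubb5* (2 against 1). Its single-positive to DP ratio was 1.44 for *Tuba1a*, 0 for *Tubb2a* (0 against 1), 0.261 for *Tubb2b* (2 against 3) and 2.35 for *Tubb5* (6 against 1). Summing all peaks over a start, a minimum of 500 counts per cell, scaling to counts in peaks over starts and capping counts at 1 kept every ratio of the members within its interval, though capping moved the interval for *Tubb4b* in DN against DP cells off 1 (0.661, 0.451 to 0.976), and summing did so for *Stmn1* in single-positive against DP cells (0.640, 0.456 to 0.904). In the series from 31000 no interval that left out 1 in the pooled sorts still did so. Leaving out the series from 4000, an alternative chosen after seeing the data, gave a DN to DP ratio of 0.949 for *Tubb2a*, and single-positive to DP ratios of 0 for *Tuba1c* (0 counts against 9), 0 for *Tubb2a* (0 against 5) and 0.173 for *Tubb2b*. The *Tuba1a* DN to DP interval then included 1 (0.651, 0.368 to 1.21), and the *Tuba1c* single-positive to DP interval left it out (0 to 0.743).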
